A study of Mus musculus with 24 samples.

Results

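DNA repair and damage checkpoint genes were followed in mouse oocytes and zygotes through 42 genes taken by their symbols, all of which are in the table of 23235 genes. They cover homologous recombination (9 genes), break sensing and the checkpoint (10), mismatch repair (4), base excision and repair of single-strand breaks (9), nucleotide excision repair (5), end joining (3) and the Fanconi anaemia pathway (2). Levels are in FPKM as deposited. By definition, FPKM are fragments per kilobase of transcript scaled to the mapped fragments of a library. How the deposited values were scaled between libraries is not given, and their sums differ widely, so they are not shares of a fixed total. Of the 42, 40 averaged 1 FPKM or more in some group and were tested, among 10884 genes in all. Atm, the kinase that sounds the alarm at broken DNA, reached at most 0.51 FPKM in any library, and the mismatch repair gene Mlh3 at most 0.69 FPKM, so neither was tested.

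The 24 RNA-seq libraries form 12 groups of 2, from wild-type (WT), Cnot6l-/- and Btg4-/- mice, all C57BL/6 at postnatal day 21 by their labels. Oocytes at the germinal vesicle stage (GV) were collected 48 h after PMSG, a hormone that stimulates follicle growth. Oocytes in the first meiotic division (MI) had 8 h of culture and eggs in the second (MII) 16 h, whereas zygotes came from mated females 24 h after hCG, which triggers ovulation. CNOT6L is a deadenylase of the CCR4-NOT complex, which shortens poly(A) tails, and BTG4 is an adaptor that brings this complex to mRNA. The labels do not say how the alleles were made, and they give the oocytes per library as 100 in one place and 2 in another. Nothing in them ties libraries to animals, so p-values measure only the spread between libraries, which may be technical.

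A fully grown oocyte stops transcribing and lives on stored mRNA until the embryonic genome is switched on, and much of this store is cleared during meiotic maturation. Among the stored mRNAs are those for repair of DNA: homologous recombination copies an intact duplex, end joining ligates broken ends directly, and the excision pathways replace damaged bases or short stretches of a strand. A checkpoint kinase cascade slows the cell cycle while damage persists.

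Several features of the libraries bear on every value. Summed FPKM lay between 451700 and 543600 at GV and between 49930 and 76040 in zygotes of WT; the libraries thus have no common total. Median-ratio scaling, which levels the libraries on 3677 genes above 1 FPKM in all of them, moved the median log2 change of all genes from -1.37 to -0.37 between WT GV and MII, and from -0.95 to -0.16 between WT GV and MI. Counts of called genes are therefore also given after scaling, where higher or lower is relative to those 3677 genes and 38 members were tested. Cnot6l was listed at 4.30 and 5.92 FPKM in Cnot6l-/- GV oocytes, against 24.1 and 73.9 in WT. In MII eggs it was at 3.40 and 7.26 FPKM in Cnot6l-/-, against 20.8 and 23.6 in WT. Btg4 was listed at 1641 and 2515 FPKM in the GV libraries labelled Btg4-/-, against 2120 and 2490 in WT, so the transcript level did not separate these groups. Replicates correlated at 0.986 to 0.992 across genes in the MI groups and at 0.925 to 0.974 in the others. A library labelled Btg4-/- MI correlated at 0.972 with a GV library of that label, above the 0.964 between those GV replicates. A WT GV library correlated at 0.969 with a GV library labelled Btg4-/-, above the 0.964 between the WT replicates. For WT zygotes the best correlation with an MII library was 0.935, above the 0.925 between zygote replicates. An MII and a zygote library labelled Btg4-/- correlated at 0.9665, above the 0.9615 and 0.9434 between replicates of those groups. The 10 oocyte markers summed to at least 318.6 FPKM in every library, and 9 or 10 of them averaged 1 FPKM or more in each group. The 10 cumulus and granulosa markers summed to between 1.75 and 29.1 FPKM, and in WT their sum was lower at each later stage, at 19.8 and 27.0 in GV oocytes, 7.53 and 9.50 in MI oocytes, 5.89 and 6.13 in MII eggs, and 1.75 and 2.29 in zygotes. It thus moved with the members, led by Cyp19a1, and its part in their changes was not tested. The 6 blood and immune markers summed to at most 3.56. The 6 sperm and testis markers, led by Ldhc and Prm2, summed to 65.0 and 84.3 FPKM in Cnot6l-/- GV oocytes and to 33.1 and 33.5 in WT, with Tnp1 at 0 in every group. At MII the sperm and testis sum was 17.6 and 18.0 FPKM in Cnot6l-/- and 0.84 and 1.54 in WT, and the oocyte sum 3107 and 3923 against 881.7 and 1291, so both moved with the members there, and their part in the results was not tested. In bulk samples such as these, fewer oocytes with a transcript and less of it per oocyte cannot be told apart. Whether the length of poly(A) tails affected what these libraries captured was not tested, so a lower FPKM need not mean less mRNA.

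In WT GV oocytes Chek1 transcripts were by far the most abundant of the repair and checkpoint genes. Chek1, the kinase that holds the cell cycle in response to damaged DNA, was listed at 188.3 and 102 FPKM, so even its own replicates lay far apart. Next came the genes of the Ku heterodimer, which grips broken DNA ends: Xrcc5 (Ku80) at 67.8 and 67.7 FPKM and Xrcc6 (Ku70) at 36.3 and 42.2. Ung, the glycosylase that removes uracil, was at 20.9 and 26.6 FPKM, and Xpa, a scaffold of nucleotide excision repair, at 21.0 and 20.7. At the other end Ercc2, a helicase of the same pathway, was at 0.25 and 0.78 FPKM. Together the 40 tested genes summed to 625.8 and 513.6 FPKM at WT GV and to 119.5 and 66.37 in WT zygotes. The mean share of all FPKM held by all 42 genes was 0.115% at WT GV and 0.148% in WT zygotes.

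**Figure D1:**
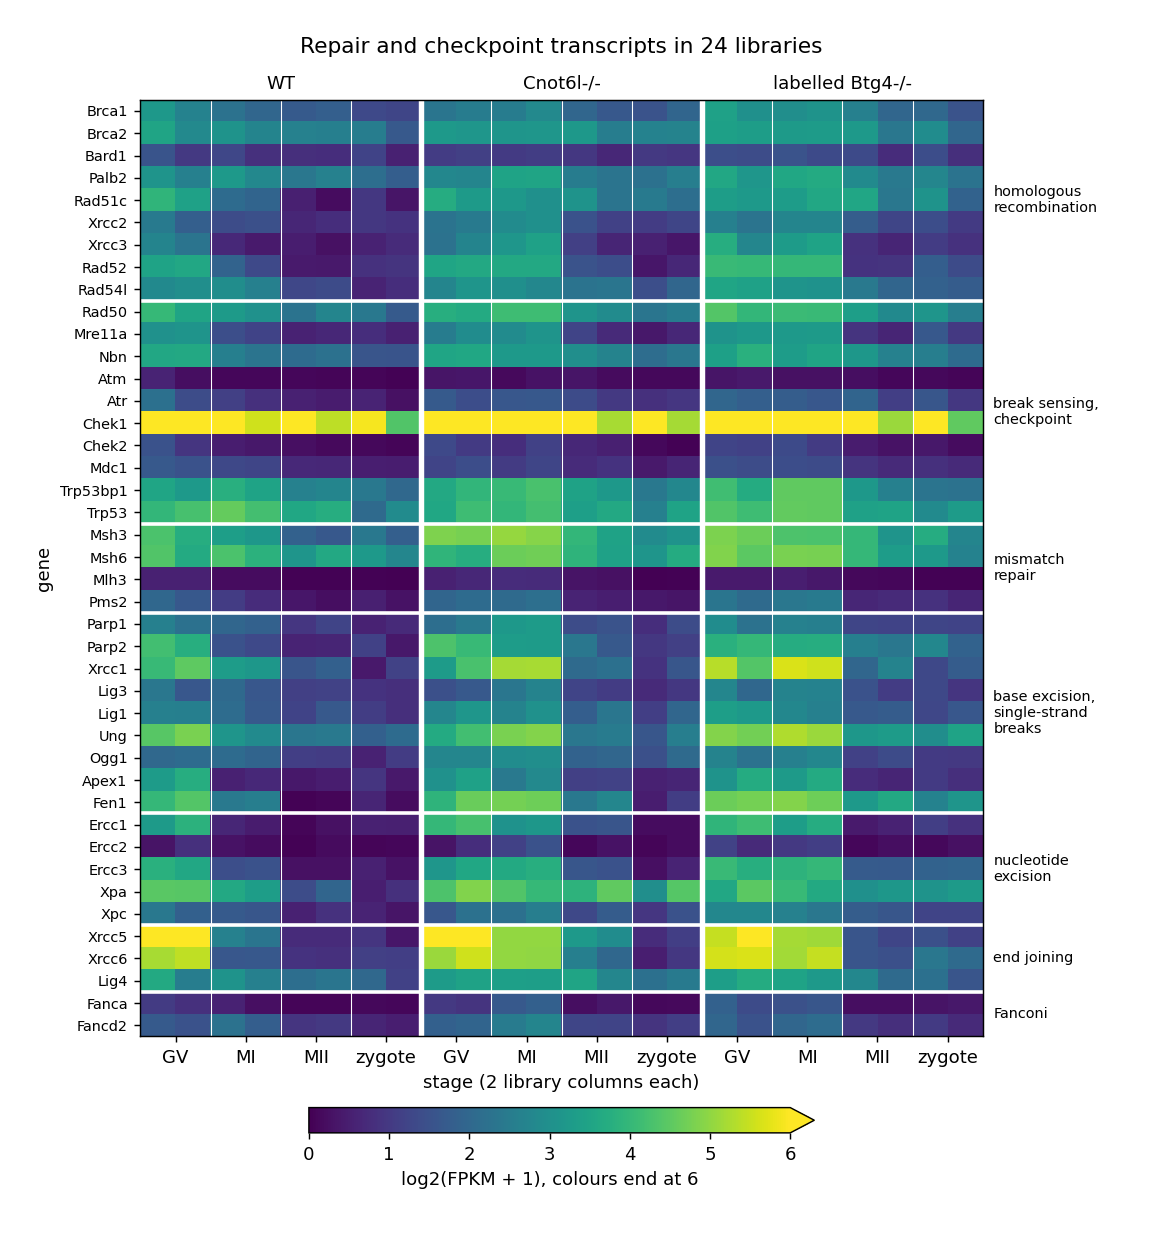
Repair and checkpoint transcripts in 24 libraries. Each row is a gene, grouped by role at the right, and each column a library, grouped by genotype and stage; colour gives log2(FPKM + 1) and ends at 6. Chek1 is bright throughout, and Xrcc5 and Xrcc6 are bright at GV, dim at MI in WT alone, and dim at MII in all 3 genotypes.

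Most of these transcripts were lower after maturation of WT oocytes, by widely differing amounts. From GV to MII no member was called higher and 34 of 40 fell (limma, adjusted p under 0.05), against 83.4% of all genes tested called lower and 0.0551% higher. The median log2 change of the members was -1.38 and that of all genes -1.37, so the count lay near the background. After scaling, 15 of 38 members fell, 8 rose and 15 were not called, where 43.2% of all genes were lower and 14.9% higher. By MI 22 of 40 had fallen and none had risen, with 65.1% of all genes called lower and 0.753% higher. After scaling 12 rose and 9 fell at MI, against 15.2% and 30.5% of all genes. At MII the members held a median of 18.1% of their GV level and all genes a median of 14.7%. Of the 40 members 13 were under 10% and 5 over 50%, against 40.7% and 12.6% of all genes.

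On the log2(FPKM + 1) scale, the largest falls to MII were in the Ku genes of end joining. These are Xrcc5 (mm9 chr1:72353995-72441527, plus strand) and Xrcc6 (chr15:81846799-81870514, plus strand). By the share of the GV mean left at WT MII the order differed. Fen1 was lowest at 0.20%, followed by Xrcc5 (0.97%), Ercc1 (1.12%), Ercc3 (1.67%) and Xrcc6 (2.04%). Xrcc5 dropped from 67.8 and 67.7 FPKM at GV to 5.19 and 4.01 at MI and to 0.66 in both MII libraries. Xrcc6 went from 36.3 and 42.2 to 2.07 and 2.15 and then to 0.83 and 0.77. Neither gene's libraries overlapped between GV and the later stages. The log2 changes from GV to MII were -5.37 (SE 0.25, limma adjusted p = 1.8e-11) for Xrcc5 and -4.48 (SE 0.24, adjusted p = 5.6e-11) for Xrcc6, the lowest of the 40, and both fell after scaling too, with changes of -3.95 and -3.02. Most of this change was present at MI, where Xrcc5 was lower by a log2 change of -3.63 and Xrcc6 of -3.69. Lig4, the ligase that seals the ends Ku holds, was at 11.5 and 4.83 FPKM at GV and still at 3.52 and 4.01 at MII. It was called lower as deposited and called higher after scaling.

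Among base excision genes the fall was led by Fen1, Parp2 and Apex1. Fen1, the nuclease that trims flaps left by repair and replication, was at 15.0 and 19.9 FPKM at GV, 4.40 and 4.94 at MI, and 0.02 and 0.05 at MII, near the lowest values the table can hold. Its log2 change from GV to MII was -4.14 (SE 0.29, limma adjusted p = 9e-10) and -3.18 after scaling. Parp2, which marks DNA breaks with poly(ADP-ribose), was at 17.1 and 12.5 FPKM at GV, 1.87 and 1.51 at MI, and 0.51 and 0.55 at MII. Apex1, the main endonuclease at sites that have lost a base, was at 8.78 and 12.4 FPKM at GV, and at 0.47 and 0.61 already at MI. Its change from GV to MI was -2.90 (SE 0.25, adjusted p = 3.3e-08). Exons of Tmem55b on the other strand cover 61.7% of the exon bases of Apex1, and no label says whether counting used strand. Tmem55b was at 18.8 and 14.4 FPKM at WT GV and at 1.63 and 1.25 at MI, and its part in the values of Apex1 was not tested. Gm10143, which is not listed in the table, covers 78.8% of the exon bases of Fen1 in the same way. Parp1, the sister enzyme of Parp2, moved less, from 5.15 and 3.75 FPKM in GV oocytes to 0.94 and 1.33 in MII eggs, and after scaling its change was -0.02 (adjusted p = 0.96). As deposited all 9 genes of this role were called lower at MII, where 83.4% of all genes were. After scaling 3 of 9 were called lower and none higher, against 43.2% and 14.9% of all genes.

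Nucleotide excision repair had all 5 of its genes called lower at MII as deposited, against 83.4% of all genes. After scaling 3 of 4 tested were called lower and none higher, against 43.2% and 14.9% of all genes. Ercc1, which with its partner nuclease cuts the damaged strand, was at 8.67 and 13.6 FPKM at GV, 0.56 and 0.38 at MI, and 0.05 and 0.20 at MII. Its change from GV to MII was -3.40 (SE 0.21, limma adjusted p = 2e-10). Ercc3, a helicase of the transcription factor TFIIH that opens the damaged duplex, was at 12.9 and 11.1 FPKM and then at 0.20 in both MII libraries, a change of -3.43 (SE 0.19, adjusted p = 9.5e-11). Xpa was at 21.0 and 20.7 FPKM at GV and still at 11.2 and 9.18 FPKM at MI before 1.61 and 2.91 at MII.

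Of homologous recombination 6 of 9 genes were called lower at MII as deposited, all but Bard1, Brca2 and Palb2, against 83.4% of all genes. After scaling 3 were called lower and 3 higher, against 43.2% and 14.9% of all genes. Rad51c, a gene of strand exchange, was at 14.2 and 9.89 FPKM at GV, 3.27 and 2.80 at MI, and 0.45 and 0.14 at MII, a log2 change of -3.32 from GV to MII (SE 0.40, limma adjusted p = 9e-07). Rad52, which helps anneal single strands, went from 10.2 and 11.1 FPKM to 0.35 and 0.33 at MII. Brca2, a tumour suppressor needed for recombination, was at 10.4 and 6.08 FPKM at GV and at 5.23 and 4.98 at MII. Its partner Palb2 was at 7.63 and 5.11 and then at 4.22 and 5.20, so its GV and MII libraries overlapped. Neither gene was called lower as deposited, and both were called higher after scaling. Brca1, a tumour suppressor that promotes resection of breaks, was in between, at 8.25 and 5.31 FPKM at GV and 2.24 and 2.50 at MII. It fell by 1.18 as deposited (SE 0.27, adjusted p = 0.0007), and its change after scaling was 0.36 (adjusted p = 0.081).

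Of break sensing and the checkpoint 7 of 9 tested genes were called lower at MII as deposited, all but Chek1 and Trp53, against 83.4% of all genes. After scaling 1 of 8 was called lower and 2 higher, against 43.2% and 14.9% of all genes. Chek1 was at 68.1 and 46.6 FPKM at MI, 91.98 and 41.1 in MII eggs, and 59.7 and 19.7 in zygotes, and it was the highest of the 40 in all 12 groups. From GV to MII its change was -1.16 with an SE of 0.73 (limma adjusted p = 0.15), and 0.76 after scaling (adjusted p = 0.28), and neither was called. In MII eggs and zygotes of all genotypes the library numbered 1 held between 1.82 and 4.45 times as much Chek1 as the library numbered 2. Trp53, which encodes p53, was at 14.8 and 17.9 FPKM at GV, 22.9 and 17.4 at MI and 10.9 and 12.4 at MII. It was not called between GV and MII as deposited, with a change of -0.45 (SE 0.32, adjusted p = 0.19), while scaling turned it into a called rise (1.34, adjusted p = 0.013). Trp53bp1, which shields breaks from resection, was at 10.4 and 8.40 FPKM at GV, 12.8 and 10.2 at MI and 5.25 and 5.61 at MII. It was called lower from GV to MII as deposited and higher after scaling (adjusted p = 0.00046). Of the MRN complex, which first binds broken ends, Mre11a dropped to 0.49 and 0.59 FPKM from 7.16 and 7.65, while Rad50 was at 3.91 and 5.68 from 15.3 and 10.4 and Nbn at 3.28 and 3.69 from 11.01 and 11.2. All 3 were called lower as deposited, and after scaling Mre11a alone of them was. Atr, the kinase upstream of CHEK1, went from 3.66 and 1.64 FPKM to 0.47 and 0.38, a change of -1.30 (SE 0.29, adjusted p = 0.00053) that was -0.31 and not called after scaling (adjusted p = 0.15).

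Mismatch repair showed a similar divide, with Msh6 above Msh3 at MII. Msh6 was at 19.6 and 11.7 FPKM at GV and 7.72 and 11.3 at MII, a change of -0.64 (SE 0.33, limma adjusted p = 0.079), and was called higher after scaling (1.14). Msh3 was at 18.8 and 12.3 FPKM at GV and 2.62 and 2.16 at MII, and was called lower both as deposited and after scaling. The Fanconi gene Fancd2 was at 2.23 and 1.86 FPKM at GV and 0.90 and 0.99 at MII. It fell by 0.64 as deposited (SE 0.20, adjusted p = 0.0064), while after scaling it was called higher (0.48, adjusted p = 0.0096).

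The remaining members were mostly scarce transcripts. In WT MII eggs Bard1 (the partner of BRCA1), the recombination genes Xrcc2 and Xrcc3, the checkpoint kinase Chek2, Mdc1, the mismatch repair gene Pms2, Ercc2, the damage sensor Xpc and Fanca all lay under 1 FPKM in both libraries, from at most 5.51 FPKM at GV. Of these Xrcc3 had reached 0.61 and 0.35 FPKM by MI from 5.51 and 3.99, whereas Mdc1, an adaptor at marked breaks, was still at 1.47 and 1.38 from 2.18 and 1.83. Rad54l overlapped its GV libraries at MI, at 6.69 and 5.11 FPKM from 6.25 and 6.82, and stood at 1.42 and 1.58 at MII. Xrcc1 went from 15.5 and 21.6 FPKM at GV to 8.97 and 8.03 and then 1.98 and 2.57. The ligase genes Lig1 and Lig3 were at 1.31 and 2.18 FPKM and at 1.19 and 1.28 at MII. Ogg1 was at 3.31 and 2.81 FPKM at MI from 3.09 and 3.25 at GV, and was at 1.18 and 1.08 at MII.

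**Figure D2:**
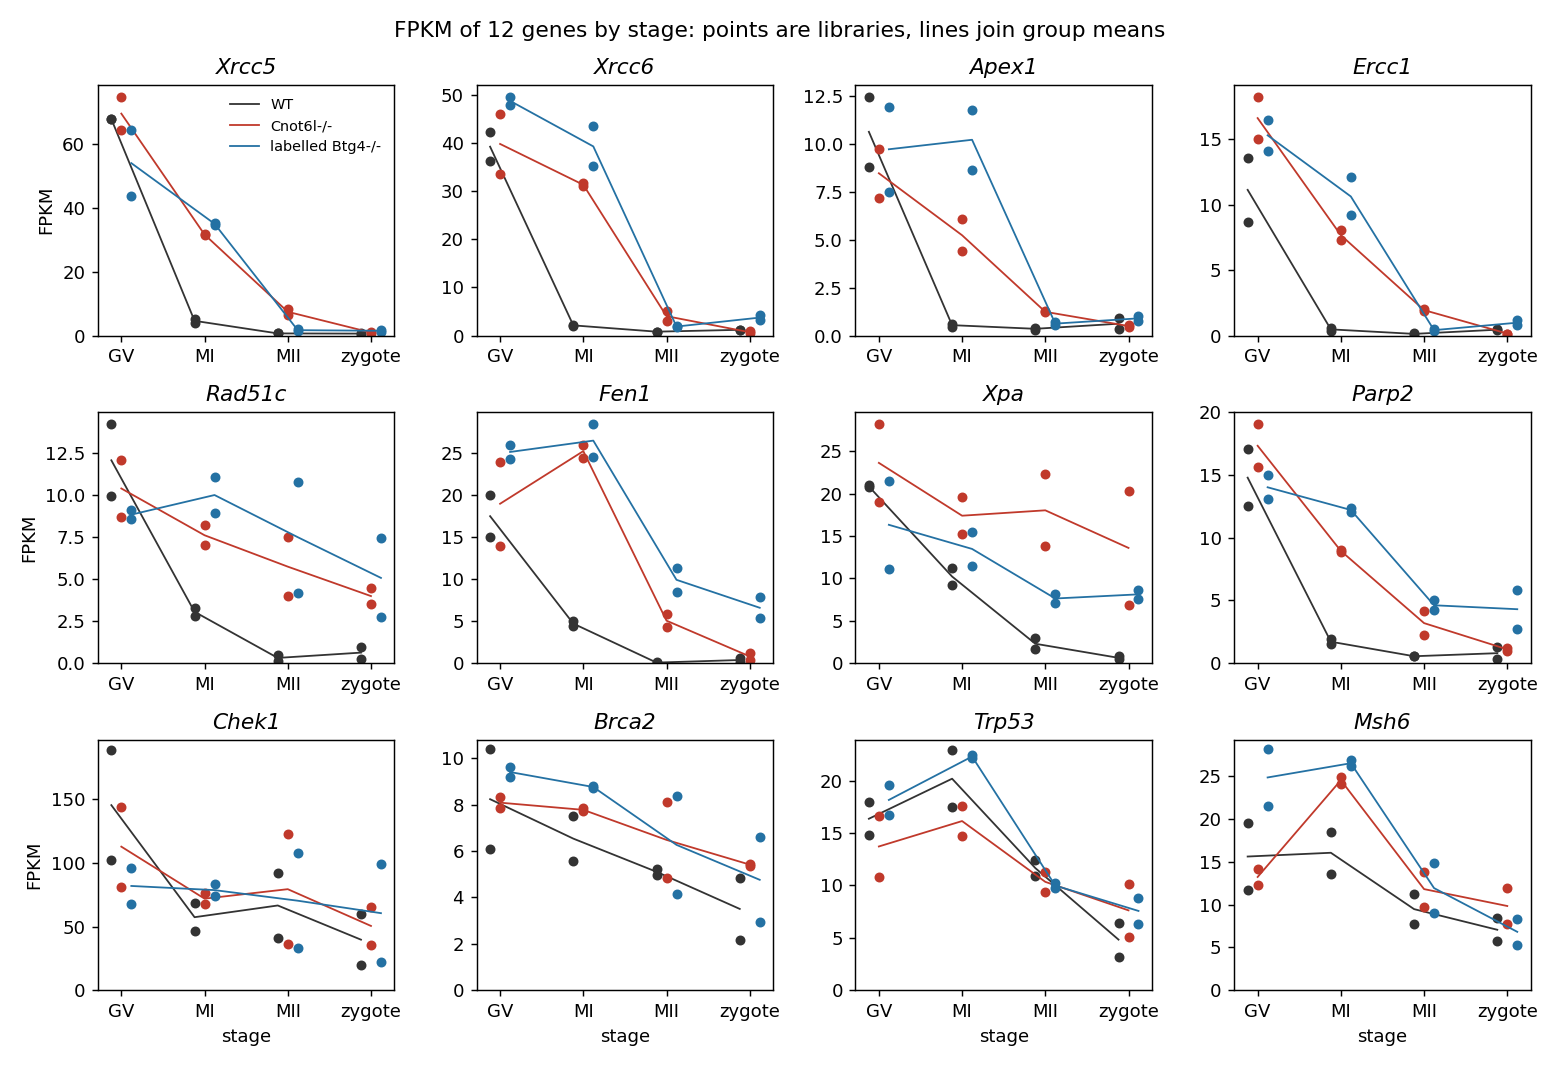
FPKM of 12 repair and checkpoint genes by stage on a linear axis of its own for each gene, with 1 point per library and lines through the mean of the 2 libraries of each genotype. In WT, Xrcc5, Xrcc6, Apex1 and Ercc1 are already low at MI, while the WT MII libraries of Chek1, Brca2, Trp53 and Msh6 lie between 4.98 and 91.98.

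Between MII eggs and zygotes of WT few members were called. Of 40 members 1 was called, Trp53, at 3.20 and 6.46 FPKM in zygotes, a log2 change of -1.17 (SE 0.32, limma adjusted p = 0.045). This call was lost without WT MII library 1 or 2, without WT zygote library 1, and without the MI libraries, with adjusted p between 0.13 and 0.32. Among all genes 3.22% were called lower and 1.04% higher. After scaling 5 of 38 members were called higher and none lower, against 15.0% and 4.86% of all genes.

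Stretches of the 3′ untranslated region (UTR) of 8 members are shown because elements there govern the poly(A) tail, the target of CCR4-NOT. The cytoplasmic polyadenylation element (CPE), searched as TTTTAT or TTTTAAT, binds CPEB and directs tail lengthening in oocytes. The polyadenylation signal (PAS), AATAAA or ATTAAA, marks where the tail is added. Searches ran on the sense strand of UTRs of at least 50 bases in the GENCODE annotation of mm9 (NCBIM37), and the longer CPE can overlap a PAS. The 4 members that were not called lower at WT MII and hold a CPE are shown first, with the CPE in capitals:

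Chek1, chr9:36516310-36516339, minus strand: ctcaagtatgtTTTTAATtttttgtgtata
Brca2, chr5:151372272-151372301, plus strand: ctacaactatcaTTTTATatacaaaataaa
Trp53, chr11:69405316-69405345, plus strand: ttttttacccctTTTTATatatcaatttcc
Bard1, chr1:71074149-71074178, minus strand: aatgtgtgtaatTTTTATtttttcctaatg

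For 4 of the members that fell early in WT, shown as examples, no CPE was found in the UTR, and the PAS is in capitals:

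Xrcc6, chr15:81870484-81870513, plus strand: ccttactctgtgAATAAAgagctctaactt
Apex1, chr14:51546783-51546812, plus strand: caatccaagagaAATAAAaggccctacttt
Ercc1, chr7:19941837-19941866, plus strand: gcccagtgtcacAATAAAgaattttccatg
Parp2, chr14:51440944-51440973, plus strand: gatattttgtttAATAAAatagtataaatc

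In Brca2 and Trp53 the CPE began 38 and 48 bases from the end of the transcript and in Bard1 95 bases, whereas in Chek1 it began 262 bases away. Not called does not mean unchanged. At WT MII the mean was 45.8% of GV for Chek1, 62.0% for Brca2, 71.2% for Trp53 and 49.8% for Bard1. With library number as a block Chek1 was called lower. The other members not called lower, Msh6 and Palb2, had no CPE, and neither motif was found in the UTR of Xrcc5. The UTRs of the examples without a CPE were of 167 bases in Xrcc6, 166 in Apex1, 52 in Ercc1 and 106 in Parp2. Those shown with a CPE were of 1853 bases in Chek1, 235 in Brca2, 442 in Trp53 and 3022 in Bard1. The part of UTR length in these matches was not tested. Not all early falls lacked a CPE. Ercc3 and Chek2 were called lower already at WT MI and held one, beginning 66 and 500 bases from the end. Over the 36 members with a matched UTR, 16 held a CPE (44.4%), against 56.5% of 8865 tested genes, with a median UTR length of 498 bases against 786. Among members not called lower at WT MII 4 of 6 held a CPE, and among those called lower 11 of 29 (1 of the 36 was not tested). Over all genes the shares were 75.1% of those not called lower and 52.9% of those called lower, with median UTR lengths of 1132.5 and 733 bases. Among members these medians ran the other way, at 349 bases for those not called lower and 554 for those called lower. A PAS was found in 32 of 36 members (88.9%) and 90.8% of genes, the AU-rich ATTTA in 21 (58.3%) and 63.1%, and the Pumilio element TGTANATA in 7 (19.4%) and 22.3%. A match describes letters only and says nothing about binding.

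At GV few of these transcripts were called between genotypes. No member was called between Cnot6l-/- and WT by limma, against 6.06% of all genes called higher and 3.02% lower. An unadjusted p under 0.05 was reached by 4 of 40 members and by 2023 of all 10884 genes tested. After scaling 1 was called higher, Msh3 (0.82, adjusted p = 0.009), at 27.8 and 26.4 FPKM against 18.8 and 12.3, where 5.49% of all genes were called higher. Xrcc5 was at 64.2 and 74.7 FPKM in Cnot6l-/- oocytes and Xrcc6 at 33.5 and 46.1, each overlapping WT. In the libraries labelled Btg4-/- 1 member was called higher, Fanca, a core Fanconi gene, at 2.61 and 1.57 FPKM against 1.06 and 0.79. Over all genes 6.10% were called higher there and 1.33% lower. This call was absent after scaling, without WT GV library 2 and without the first GV library labelled Btg4-/-.

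Every comparison of Cnot6l-/- or labelled Btg4-/- with WT below shares the WT libraries of its stage, so the paired values are not independent. At MI most members stood above WT in both. In Cnot6l-/- oocytes 27 of 40 members were called higher than in WT and none lower, where 60.3% of all genes were called higher and 1.3% lower, and the median difference was 0.98 against 0.87 over all genes. In oocytes labelled Btg4-/- 29 of 40 were called higher and none lower, against 68.7% and 0.432% of all genes, with a median of 0.91 against 0.99. Both counts lay near their backgrounds. After scaling 14 of 38 members were higher and 4 lower in Cnot6l-/- (35.8% and 11.0% of all genes), and 13 higher and 5 lower in the labelled Btg4-/- group (32.5% and 9.82%). Relative to their own GV level the members held a median of 46.8% in WT, 115.4% in Cnot6l-/- and 98.9% in the labelled Btg4-/- group, where the medians of all genes were 32.4%, 85.5% and 90.5%.

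Of the Ku genes, Xrcc6 had the largest difference from WT among members in both groups on the log2(FPKM + 1) scale. By the ratio of mean FPKM to WT, Ercc1 (16.31 and 22.6) and Xrcc3 (18.46 and 19.72) lay above Xrcc6 (14.85 and 18.63). Xrcc6 was at 31.7 and 31.0 FPKM in Cnot6l-/- MI oocytes and at 35.1 and 43.5 in those labelled Btg4-/-, where WT had 2.07 and 2.15. The differences were 3.38 (SE 0.24, limma adjusted p = 9.5e-09) and 3.69 (SE 0.24, adjusted p = 3.7e-09), and 2.54 and 2.58 after scaling. Xrcc5 was at 31.8 and 31.5 FPKM in Cnot6l-/- and 35.4 and 34.6 in the labelled Btg4-/- group, against 5.19 and 4.01. Ercc1, at 7.27 and 8.06 FPKM and at 9.17 and 12.1, lay far above the 0.56 and 0.38 of WT, by 2.56 (SE 0.21, adjusted p = 2.9e-08) and 2.97 (SE 0.21, adjusted p = 5.3e-09). Apex1 was at 4.40 and 6.05 FPKM in Cnot6l-/- and 8.63 and 11.8 in the labelled Btg4-/- group. It was above WT by 2.00 (SE 0.25, adjusted p = 2.5e-06) and 2.85 (SE 0.25, adjusted p = 4.8e-08). Its antisense neighbour Tmem55b stood at 6.08 and 5.64 FPKM and at 10.8 and 13.4 in these libraries. Xrcc3, also of homologous recombination, was at 7.93 and 9.79 FPKM and at 8.73 and 10.2, against 0.61 and 0.35 in WT, differences of 2.73 (SE 0.28, adjusted p = 3.2e-07) and 2.82 (SE 0.28, adjusted p = 1.8e-07).

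At MI some transcripts stood above their own GV mean. Xrcc1, the scaffold that gathers ligase at nicks, was at 35.6 and 36.4 FPKM in Cnot6l-/- MI oocytes, above the 8.81 and 18.4 of their own GV oocytes, and at 49.3 and 46.2 in the labelled Btg4-/- group. WT MI oocytes had 8.97 and 8.03. It was called higher than in WT in both groups as deposited, and in neither after scaling (adjusted p = 0.11 and 0.08). As deposited all 9 base excision genes were called higher than in WT at MI in both groups, against 60.3% and 68.7% of all genes. After scaling 3 of 9 were called higher in Cnot6l-/- and 4 of 9 in the labelled Btg4-/- group, with none lower. Over all genes 35.8% and 32.5% were called higher there, and 11.0% and 9.82% lower. By contrast Trp53 was at 14.7 and 17.5 FPKM in Cnot6l-/-, 22.4 and 22.2 in the labelled Btg4-/- group and 22.9 and 17.4 in WT. It was not called in either as deposited, and after scaling it was called lower in Cnot6l-/- (-1.18, adjusted p = 0.031). Brca1 and Parp1 were called higher in the labelled Btg4-/- group as deposited, but their differences were -0.094 and -0.26 after scaling. The Brca1 call was also lost without 1 WT MI library, and that of Parp1 without that library or either MI library labelled Btg4-/-. Rad51c, at 8.17 and 7.0 FPKM in Cnot6l-/- against 3.27 and 2.80, was higher by 1.09 (SE 0.40, adjusted p = 0.026), a call lost without any one of the 4 libraries.

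By MII the Ku, Apex1 and Ercc1 transcripts had fallen in Cnot6l-/- eggs as well. From GV to MII 25 of 40 members fell in Cnot6l-/- oocytes and 35 of 40 in those labelled Btg4-/- (59.9% and 75.3% of all genes called lower). None rose in either, against 0.0459% and 0.0368% of all genes. After scaling these counts were 10 and 10 of 38, with 2 higher in Cnot6l-/- and none in the other, against 23.4% and 29.7% of all genes lower and 2.38% and 1.63% higher. Xrcc6 fell by 3.04 in Cnot6l-/- (SE 0.24, limma adjusted p = 9e-08) and by 4.12 in the labelled Btg4-/- group (SE 0.24, adjusted p = 4.3e-10). Median levels were 48.6% and 36.1% of the members' own GV values, and 41.1% and 33.4% over all genes, where WT members stood at 18.1%. Rad51c was not called from GV to MII in either group, at 7.47 and 3.97 FPKM in Cnot6l-/- MII eggs and 10.8 and 4.18 in those labelled Btg4-/-. Without Cnot6l-/- MII library 1 it was called lower there (adjusted p = 0.045).

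**Figure D3:**
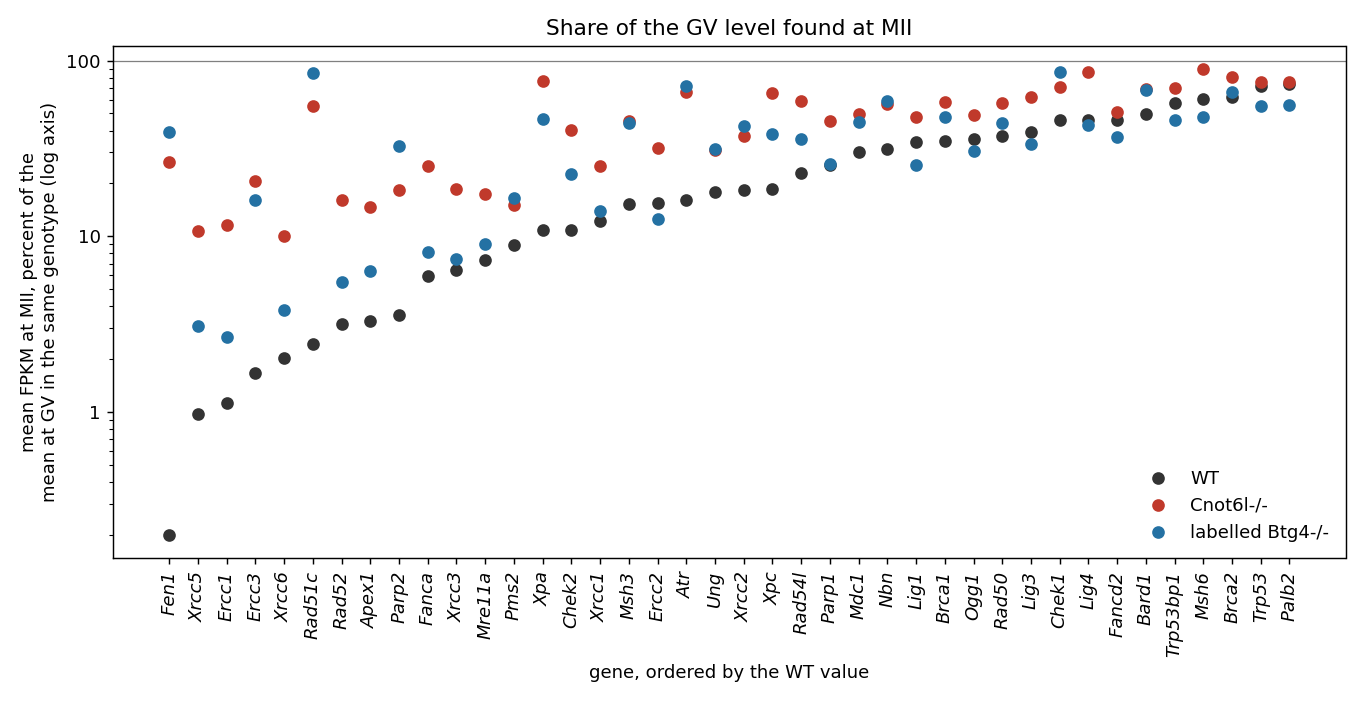
Mean FPKM at MII as a percentage of the mean at GV in the same genotype, for the 40 tested genes ordered by the WT value, on a log axis; the line marks 100%. Fen1, Rad51c and Xpa lie far higher in both other genotypes than in WT, while Xrcc5, Xrcc6 and Ercc1 stay under 12% in all 3.

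Set against WT at MII, 16 of 40 members were called higher in Cnot6l-/- eggs (44.3% of all genes) and 13 in eggs labelled Btg4-/- (28.3%). None was lower, against 0.671% and 0.34% of all genes. Without WT MII library 1 or 2, or without library 1 labelled Btg4-/-, the second count was 6, 8 and 5. After scaling the counts were 10 higher and 3 lower (34.3% and 8.69% of all genes) and 7 higher and 2 lower (21.8% and 6.55%). Both counts lay near the background, and a few genes differed widely. Fen1 was at 4.25 and 5.79 FPKM in Cnot6l-/- and 8.49 and 11.3 in the labelled Btg4-/- group, where WT had 0.02 and 0.05. It was higher by 2.53 (SE 0.29, limma adjusted p = 2.5e-06) and 3.38 (SE 0.29, adjusted p = 4.3e-07), and by 2.58 and 3.54 after scaling. Rad51c was higher by 2.34 (SE 0.40, adjusted p = 0.00016) and 2.60 (SE 0.40, adjusted p = 0.00012). Xpa was at 13.8 and 22.3 FPKM and at 7.11 and 8.10, against 1.61 and 2.91, differences of 2.54 (SE 0.40, adjusted p = 7.6e-05) and 1.43 (SE 0.40, adjusted p = 0.013). The latter was not called after scaling, nor without WT MII library 1 or either library labelled Btg4-/- (adjusted p between 0.054 and 0.13). Msh3, at 15.1 and 7.67 FPKM in the labelled Btg4-/- group against 2.62 and 2.16, was higher by 1.8 (SE 0.34, adjusted p = 0.00066).

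Set directly against each other at MII, Cnot6l-/- and the labelled Btg4-/- group differed in both Ku genes and Ercc1. Xrcc5 was at 8.35 and 6.51 FPKM in Cnot6l-/- eggs, 1.97 and 1.38 in eggs labelled Btg4-/- and 0.66 in both WT libraries, with no overlap. Cnot6l-/- was above the labelled Btg4-/- group by 1.66 (SE 0.25, limma adjusted p = 0.00031), and by 1.62 after scaling. Ercc1 was at 1.87 and 2.01 FPKM against 0.34 and 0.48, a difference of 1.06 (SE 0.21, adjusted p = 0.0023). Xrcc6, at 5.04 and 3.0 FPKM against 1.99 and 1.74, differed by 0.78 (SE 0.24, adjusted p = 0.042), and this call was lost without Cnot6l-/- library 1 or either library labelled Btg4-/-, without the MI libraries, and after scaling. These 3 were all the members called in this comparison, against 11.0% of all genes called higher and 1.77% lower. After scaling 2 were higher and 1, Brca1, lower, against 13.9% and 4.27% of all genes. At MI the same comparison called 1 member, Apex1, lower in Cnot6l-/- by a log2 difference of -0.85 (SE 0.25, adjusted p = 0.038), a call lost without any one of the 4 libraries and after scaling. Among all genes 3.59% were called higher there and 6.46% lower. After scaling 2 members, Fancd2 and Msh3, were called higher, against 4.69% and 2.86% of all genes higher and lower.

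Whether the change from GV to MII itself differed from WT was tested as a difference of differences. In Cnot6l-/- it was smaller for 10 of 40 members and larger for none, against 24.1% and 0.717% of all genes, and in the labelled Btg4-/- group smaller for 5 and larger for none, against 13.3% and 0.579%. After scaling the difference from the WT change was positive for 4 and negative for 1 in Cnot6l-/- (15.0% and 0.733% of all genes). In the labelled Btg4-/- group it was positive for 4 and negative for 3 (12.4% and 2.38%). Fen1 and Rad51c were called in both groups. The Fen1 values were 2.45 (SE 0.40, limma adjusted p = 0.00031) and 2.87 (SE 0.40, adjusted p = 0.00018), and those of Rad51c 2.53 (SE 0.57, adjusted p = 0.0035) and 2.99 (SE 0.57, adjusted p = 0.0019). Parp2 was at 4.16 and 2.19 FPKM in Cnot6l-/- MII eggs and 4.99 and 4.21 in those labelled Btg4-/-, where WT had 0.51 and 0.55. Xrcc5 was called in Cnot6l-/- (2.30, SE 0.36, adjusted p = 0.00018) and Parp2 in the labelled Btg4-/- group (1.93, SE 0.43, adjusted p = 0.0056). Chek1, Trp53, Msh6 and Brca1 were not called in either group as deposited, with SEs between 0.38 and 1.04. Msh6 was called in the labelled Btg4-/- group after scaling (limma adjusted p = 0.022), its rise being smaller than in WT. Its scaled mean at MII was 110.4% of GV there and 239.5% in WT. Without Cnot6l-/- GV library 1 the count of 10 was 6.

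**Figure D4:**
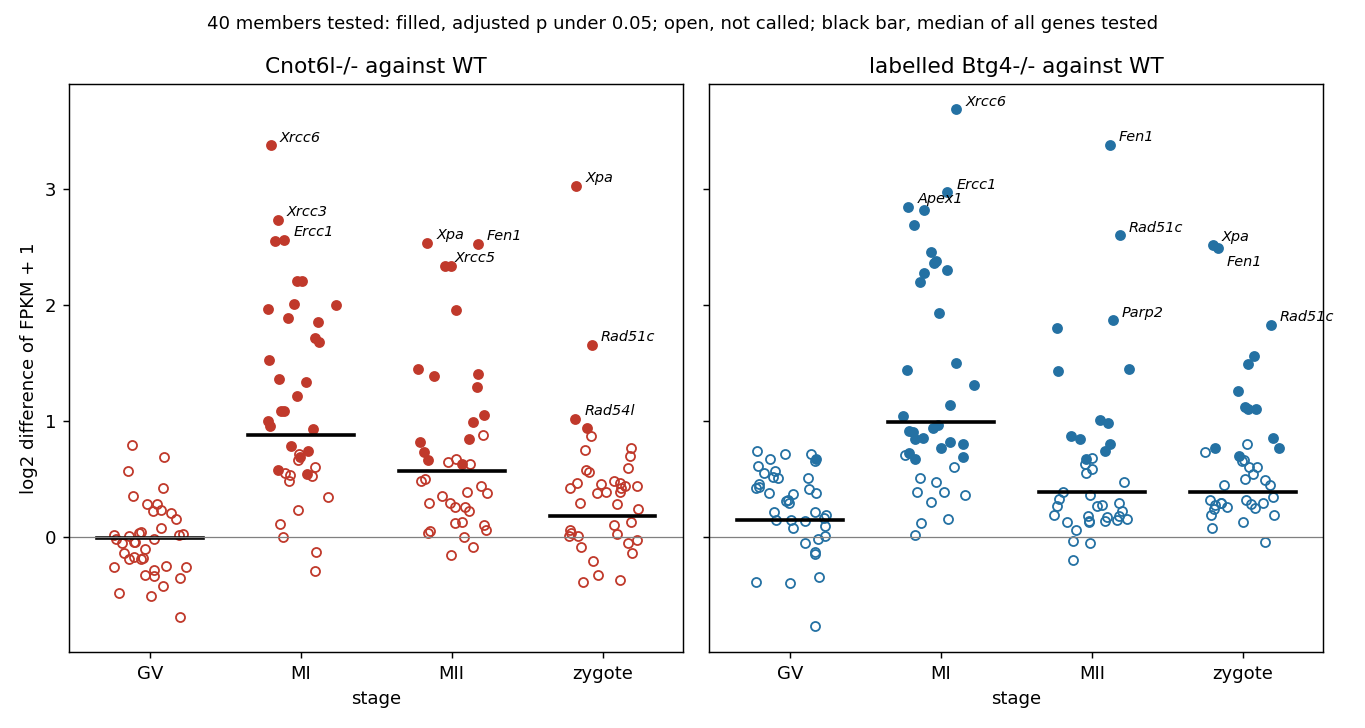
Log2 differences from WT of the repair and checkpoint genes at each stage, for Cnot6l-/- and the groups labelled Btg4-/-, on the log2(FPKM + 1) scale, with filled points for limma adjusted p under 0.05, open points for the rest, and a bar at the median of all genes tested. The bar stands at 0.87 and 0.99 at MI, where Xrcc6 is the highest point in both panels, and Xpa is the highest in zygotes.

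In zygotes Xpa and Rad51c were still called higher than in WT in both groups. Against WT 4 of 40 members were called higher in Cnot6l-/- zygotes (8.0% of all genes) and 13 in zygotes labelled Btg4-/- (21.5%). None was lower, against 0.413% and 0.0459% of all genes. The first count was 2 without WT zygote library 1 and 1 without Cnot6l-/- library 2, and the second was 7 without WT zygote library 2 or the first zygote library labelled Btg4-/-. After scaling there were 3 higher and 4 lower (8.0% and 7.91% of all genes), and 7 higher and 2 lower (11.7% and 3.04%). The 4 in Cnot6l-/- were Xpa, Rad51c, the recombination motor Rad54l and Ogg1, the glycosylase for oxidised guanine. Rad54l was at 1.71 and 2.92 FPKM in Cnot6l-/- zygotes and 2.65 and 2.34 in those labelled Btg4-/-, against 0.52 and 0.71 in WT, and it was called higher in both. Ogg1 was at 1.74 and 3.20 FPKM in Cnot6l-/- zygotes against 0.50 and 1.08 in WT, but at 1.04 and 0.98 in those labelled Btg4-/-, within the WT range.

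Xpa was at 6.85 and 20.3 FPKM in Cnot6l-/- zygotes and 7.53 and 8.66 in those labelled Btg4-/-, where WT had 0.42 and 0.77. The differences were 3.03 (SE 0.40, limma adjusted p = 0.00017) and 2.52 (SE 0.40, adjusted p = 0.00026), and 3.04 and 2.30 after scaling. Fen1 was at 5.30 and 7.81 FPKM in zygotes labelled Btg4-/-, above WT by 2.49 (SE 0.29, adjusted p = 1.5e-05). In Cnot6l-/- zygotes it was at 0.40 and 1.14 FPKM, against 0.53 and 0.15 in WT, so those libraries overlapped. Rad51c was at 4.47 and 3.47 FPKM and at 7.40 and 2.70, against 0.96 and 0.26. It was higher by 1.65 (SE 0.40, adjusted p = 0.015) and 1.83 (SE 0.40, adjusted p = 0.0033). The first call was lost without WT zygote library 2, without either Cnot6l-/- library and without the MI libraries, and the second without WT zygote library 2 or the first library labelled Btg4-/-. Ung was at 6.67 and 10.2 FPKM in the labelled Btg4-/- group against 2.57 and 3.25, a difference of 1.25 (SE 0.29, adjusted p = 0.0047) that was not called after scaling.

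Libraries were also counted without a test. At MI both Cnot6l-/- libraries lay above both WT libraries for 35 of 40 members (81.1% of all genes), and both labelled Btg4-/- for 38 (89.8%). The counts were 30 (71.9%) and 27 (61.5%) at MII, and 18 (36.5%) and 31 (53.0%) in zygotes. At GV they were 6 (20.9%) and 15 (31.7%). Both libraries lay below both WT libraries for 6 (15.7%) and 4 members (10.3%) at GV, for 4 in Cnot6l-/- zygotes (7.24%), for 1 in MII eggs labelled Btg4-/- (1.98%), and for none in the other groups. These counts are of the deposited values, with no scaling.

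Other genes of DNA repair and replication-linked repair, from a list of 102 symbols of which 91 were tested, gave the wider setting. From GV to MII in WT 78 of 91 fell and none rose as deposited, with a median log2 change of -1.49, against 83.4% and 0.0551% of all genes. After scaling 37 of 88 fell and 22 rose, with a median of -0.32, against 43.2% and 14.9% of all genes. Against WT at MII 46 of 91 were higher in Cnot6l-/- and 30 in the labelled Btg4-/- group, with none lower and medians of 0.71 and 0.46, against 44.3% and 28.3% of all genes. After scaling 36 of 88 were higher and 10 lower (34.3% and 8.69% of all genes), and 23 higher and 5 lower (21.8% and 6.55%). At MI 54 and 62 of 91 were higher as deposited (60.3% and 68.7% of all genes) and none lower. After scaling 33 of 88 were higher and 10 lower (35.8% and 11.0% of all genes), and 31 higher and 15 lower (32.5% and 9.82%). In zygotes 9 and 29 were higher (8.0% and 21.5%) and none lower. After scaling 9 of 88 were higher and 4 lower (8.0% and 7.91% of all genes), and 15 higher and 2 lower (11.7% and 3.04%).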

How the data were processed

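Total RNA was made into Smart-Seq2 and Tn5 libraries, per the labels' protocols. The authors deposited FPKM for 23235 genes; CASAVA 1.8, TopHat2 2.0.11, Bowtie2 2.1.0, Cufflinks 2.2.1 and mm9 are named in the submitters' processing notes, and the sources used here do not give the scaling between libraries. Read depth is unknown, and the only measure of error is how far the 2 libraries of a group lie apart. The deposited per-library tables were left out because some of their lines hold fields of another table. The MI columns carry numbers that differ from their titles and were assigned to groups only.

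The members and lists were chosen with earlier results of these data known. Tests covered the 10884 genes that averaged 1 FPKM or more in some group, on log2(FPKM + 1), a scale that understates changes of low genes, with limma 3.58.1 in R 4.3.3 (trend, 1 mean per group, 12 residual degrees of freedom). Tests were two-sided with Benjamini-Hochberg adjustment over all genes and a threshold of 0.05; the fit was tested on simulated data. Log2 changes are given for up to 4 called members per direction whose higher group averages 5 FPKM or more, and for Brca1, Rad51c, Atm, Atr, Chek1, Trp53, Parp1, Xrcc6, Apex1, Ercc1, Fancd2 and Msh6; genes named beside counts of 5 or fewer (Fanca, Rad54l, Ogg1, and Msh3, Fancd2 and Brca1 after scaling) and those given by levels alone were chosen after their values were seen. Alternatives were median-ratio scaling (9823 genes), a pseudocount of 0.1, dropping the filter, fitting only the groups compared, blocking on library number, leaving out each library, and, added after seeing the data, no MI libraries. UTRs come from GENCODE vM1 transcripts ending within 100 bases of the table's gene end. Python 3.11.15 read the tables.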

Additional observations from a re-analysis of the deposited data

Results flagged for a closer look

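For 7 genes of the naming rule the change from GV to MII in Cnot6l-/- differed from that in WT, by limma's test of the difference with an adjusted p under 0.05. On the log2(FPKM + 1) scale the change was less negative by 2.53 for Rad51c, 2.45 for Fen1, 2.39 for Xpa, 2.30 for Xrcc5, 1.44 for Xrcc6, 1.02 for Apex1 and 0.83 for Ercc1. The adjusted p was 0.042 for Apex1 and 0.049 for Ercc1. Both were lost without WT GV library 2, without Cnot6l-/- GV library 1 and without any one of the 4 MII libraries.

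In the libraries labelled Btg4-/- 4 genes met the same criterion, with values of 2.99 for Rad51c, 2.87 for Fen1, 1.93 for Parp2 and 1.83 for Xpa. The Xpa result (adjusted p = 0.04) was lost without 7 of the 8 libraries of this test, the exception being GV library 2 labelled Btg4-/-. Both tests use the same WT libraries. Whether the groups differed from each other in these changes was not tested.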

How the results depend on the processing

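Median-ratio scaling changed directions most. The number of members called was 21 from WT GV to MI (12 higher, 9 lower), 5 from WT MII to zygote, 7 in Cnot6l-/- zygotes against WT (3 higher, 4 lower) and 2 between the mutant groups at MI, each with a turned balance. It was 12 and 10 from GV to MII in Cnot6l-/- and labelled Btg4-/-, 1 and 0 against WT at GV, 18 in labelled Btg4-/- at MI and 5 in the Cnot6l-/- difference of changes. Among all members called as deposited, the sign turned for 5 from WT GV to MI, for 10, 6 and 9 from GV to MII in WT, Cnot6l-/- and labelled Btg4-/-, for 3 and 11 at MI in Cnot6l-/- and labelled Btg4-/- against WT and for 1 at MII in Cnot6l-/-. Of these, 3 were called in the other direction, Fancd2, Lig4 and Trp53bp1 from WT GV to MII. Of the genes of the naming rule, those that turned were Brca1 (0.22) from WT GV to MI; Brca1 (0.36), Trp53 (1.34), Fancd2 (0.48) and Msh6 (1.14) from WT GV to MII; Fancd2 (0.037) and Msh6 (0.77) in Cnot6l-/- and Brca1 (0.12), Trp53 (0.36) and Msh6 (0.14) in labelled Btg4-/- over the same step. Against WT they were Fancd2 at MI (-0.17) and Brca1 at MII (-0.58) in Cnot6l-/-, and Brca1 (-0.094), Atr (-0.00063), Parp1 (-0.26) and Fancd2 (-0.85) at MI in labelled Btg4-/-. With a pseudocount of 0.1 the counts were 6 for WT zygote against MII, 7 for Cnot6l-/- zygotes, 0 for labelled Btg4-/- GV and 0 between mutants at MI. Without the filter they were 0 for WT zygote against MII and 2 between mutants at MI. With only the groups compared in the fit they were 0 for WT zygote against MII, Cnot6l-/- zygotes, labelled Btg4-/- GV and zygotes and between mutants at MII, 10 between mutants at MI, 6 for labelled Btg4-/- MII, and 6 and 3 for the differences of changes; fewer samples then set the spread. Without the MI libraries, chosen after seeing the data, WT zygote against MII gave 0 and the other 12 counts stayed within 1.5 times. The cause was not tested for the other shifts.

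Leaving out each library in turn gave 17 to 24 (WT MI against GV), 31 to 35 (WT MII against GV), 0 to 1 (WT zygote against MII), 19 to 24 and 26 to 35 (MII against GV in Cnot6l-/- and labelled Btg4-/-). Cnot6l-/- against WT gave 0 to 1 at GV (1 without WT GV library 2), 19 to 26 at MI, 12 to 15 at MII and 1 to 5 in zygotes. Labelled Btg4-/- gave 0 to 2 (2 without its GV library 2), 20 to 30, 5 to 11 and 7 to 14. Between the mutants it was 0 at MI and 2 to 3 at MII, and for the differences of changes 6 to 12 and 4 to 7. In these fits a lone library is assumed to vary like other groups.

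Same-numbered libraries deviated together at 0.276 to 0.707 over 28 pairs of groups, but at -0.307 to 0.00013 over the 8 with labelled Btg4-/- GV and at -0.0859 to 0.0103 over the 3 of MI. The labels do not say that numbers pair libraries and not all pairs deviated together, so no pairing was assumed in the main results, although a shared deviation is present in the 28. With the number as a replicate block, 3 members were called between mutants at MI (2 higher, 1 lower), and 15 of 16 counts stayed within 1.5 times, such as 36 for WT MII against GV. The change of Chek1 from WT GV to MII was then called lower (-1.16, SE 0.47, adjusted p = 0.033). No paired analysis was possible for WT MI against GV because the columns share fewer than 2 numbers.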
